A study of Mus musculus with 18 samples.

Results

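The 6 groups of mouse bone marrow-derived basophils were compared for the 6 genes Itgb4, Cited4, Matk, Nav1, Tppp3 and Ankrd13d. These genes were chosen by measured values of the same arrays: a lower level after IL-33 in WT cells, or a higher response to IL-33 in ST2KO cells. The annotation paired 13 of the 45281 probes of the Illumina bead array with them, and 12 of these were among the 18078 probes kept for testing, which represent 9973 genes. The cells came from C57BL/6J mice aged 4 to 6 weeks, either wild type (WT) or labelled ST2KO, for which the labels give no construct or clone. Each genotype was unstimulated, stimulated with IgE for 4 h or stimulated with IL-33 for 4 h, with 3 arrays per group and 18 arrays altogether. Whether replicates are separate animals or cultures is not stated in the labels, and a p-value here reflects the spread among these arrays alone, part of which can be technical.

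IL-33 is a cytokine of the IL-1 family that is released by damaged barrier cells and binds a receptor chain named ST2, which signals through MyD88 to NF-kB and MAP kinases. Basophils also carry the high-affinity receptor for IgE, which signals through Src family kinases and Syk, and both routes are known for inducing cytokines in these cells. The 6 genes encode an adhesion receptor subunit, a transcriptional coregulator, a kinase, a pair of microtubule proteins and a binder of ubiquitinated receptors.

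The arrays had 14587 to 15741 probes with a detection p-value under 0.05, between 32.2% and 34.8% of all probes, and their median signal lay between 93.2 and 104. Replicates correlated at 0.981 to 0.994, and 0 pairs of arrays held identical signals. All 10 basophil markers, among them the protease gene Mcpt8 and the IgE receptor gene Fcer1a, were detected on all 18 arrays. The gene for ST2 itself was not analysed here, which leaves the ST2KO label without a check on its target. After IL-33 the NF-kB inhibitor gene Nfkbia changed by 3.10 on the log2 scale in WT and by 0.21 in ST2KO, and the cytokine gene Il6 by 2.85 and 0.19.

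Upstream sequence was available for 4 of the 6 genes, as 5 windows of 300 bases that run from 250 bases before to 50 bases after a RefSeq start site (mouse build GRCm38.p6). They are shown because the genes were chosen together by their values after IL-33, and a reader may want to see which short promoter elements their start regions hold. Capitals mark matches on either strand to AP-1 (TGANTCA), a cyclic AMP element (TGACGTCA), CCAAT, a GC box (GGGCGG), the TATA element TATAAA, the NFAT core GGAAAA, the hypoxia core ACGTG or the kappaB consensus, and each sequence runs 5′ to 3′ on the strand of its gene. Cited4 lies at chr4:120666313-120666612 on the plus strand, Matk at chr10:81252685-81252984 on the plus strand, Nav1 at chr1:135585306-135585605 on the minus strand and Ankrd13d at chr19:4283088-4283387 on the minus strand.
Cited4: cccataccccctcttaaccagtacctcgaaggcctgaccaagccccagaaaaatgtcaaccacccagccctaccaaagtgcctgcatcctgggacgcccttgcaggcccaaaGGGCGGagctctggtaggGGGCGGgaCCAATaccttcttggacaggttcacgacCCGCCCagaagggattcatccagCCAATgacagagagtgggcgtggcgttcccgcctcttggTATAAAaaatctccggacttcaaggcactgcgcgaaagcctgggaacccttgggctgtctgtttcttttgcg
Matk: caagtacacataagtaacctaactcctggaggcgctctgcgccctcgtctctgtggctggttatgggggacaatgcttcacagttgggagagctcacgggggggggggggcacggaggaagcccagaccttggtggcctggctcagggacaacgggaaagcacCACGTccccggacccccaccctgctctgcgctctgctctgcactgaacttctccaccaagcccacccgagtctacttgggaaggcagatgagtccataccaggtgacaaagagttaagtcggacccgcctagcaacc
Nav1: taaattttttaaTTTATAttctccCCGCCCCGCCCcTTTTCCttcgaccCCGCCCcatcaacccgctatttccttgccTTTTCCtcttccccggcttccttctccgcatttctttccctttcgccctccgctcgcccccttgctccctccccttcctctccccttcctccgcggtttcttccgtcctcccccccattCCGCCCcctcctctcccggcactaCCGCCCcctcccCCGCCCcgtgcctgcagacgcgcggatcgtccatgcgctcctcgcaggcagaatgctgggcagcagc
Ankrd13d: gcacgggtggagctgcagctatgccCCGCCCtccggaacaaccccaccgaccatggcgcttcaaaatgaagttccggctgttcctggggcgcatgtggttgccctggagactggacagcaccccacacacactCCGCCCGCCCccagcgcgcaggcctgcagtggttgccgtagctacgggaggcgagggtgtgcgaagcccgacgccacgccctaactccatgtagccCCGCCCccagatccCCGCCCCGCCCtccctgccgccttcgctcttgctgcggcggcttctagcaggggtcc
The Cited4 window held CCAAT at positions -112 and -61, 3 GC boxes and TATAAA at -22, counted from the start site. Nav1 and Ankrd13d each held 6 GC boxes, of which some overlap by a few bases, and the last box of Ankrd13d crosses the start site. The Nav1 window also held TATAAA at -238 and GGAAAA at -214 and -172, all on the strand opposite to the gene. The Matk window shown held ACGTG at -87, and a second Matk window at chr10:81257049-81257348 held 0 of the motifs. No kappaB, AP-1 or cyclic AMP element was matched in the 5 windows, which says only that these letters are not there. Among 32851 mouse promoter windows of the same length, 35.7% held a GC box, 37.4% CCAAT, 13.6% TATAAA, 23.4% GGAAAA, 19.6% ACGTG, 7.81% AP-1, 4.51% kappaB and 1.79% the cyclic AMP element. The GC content was 58% in Cited4, 60.7% in the Matk window shown, 63.3% in Nav1 and 69% in Ankrd13d, against a median of 52.7% over all windows.

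Levels below are log2 values after background correction and quantile normalization, and a change is a difference of group means on that scale. Its standard error (SE) comes from the limma fit to all 6 groups of 3 arrays, not from the compared groups alone. A probe thus has the same SE in each comparison of a group with another, whatever the spread within those groups. A gene is read from its brightest kept probe unless another is named. In bulk samples, fewer cells that hold a transcript and less of it per cell cannot be told apart. The levels by array are plotted for all 6 genes.

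**Figure D1:**
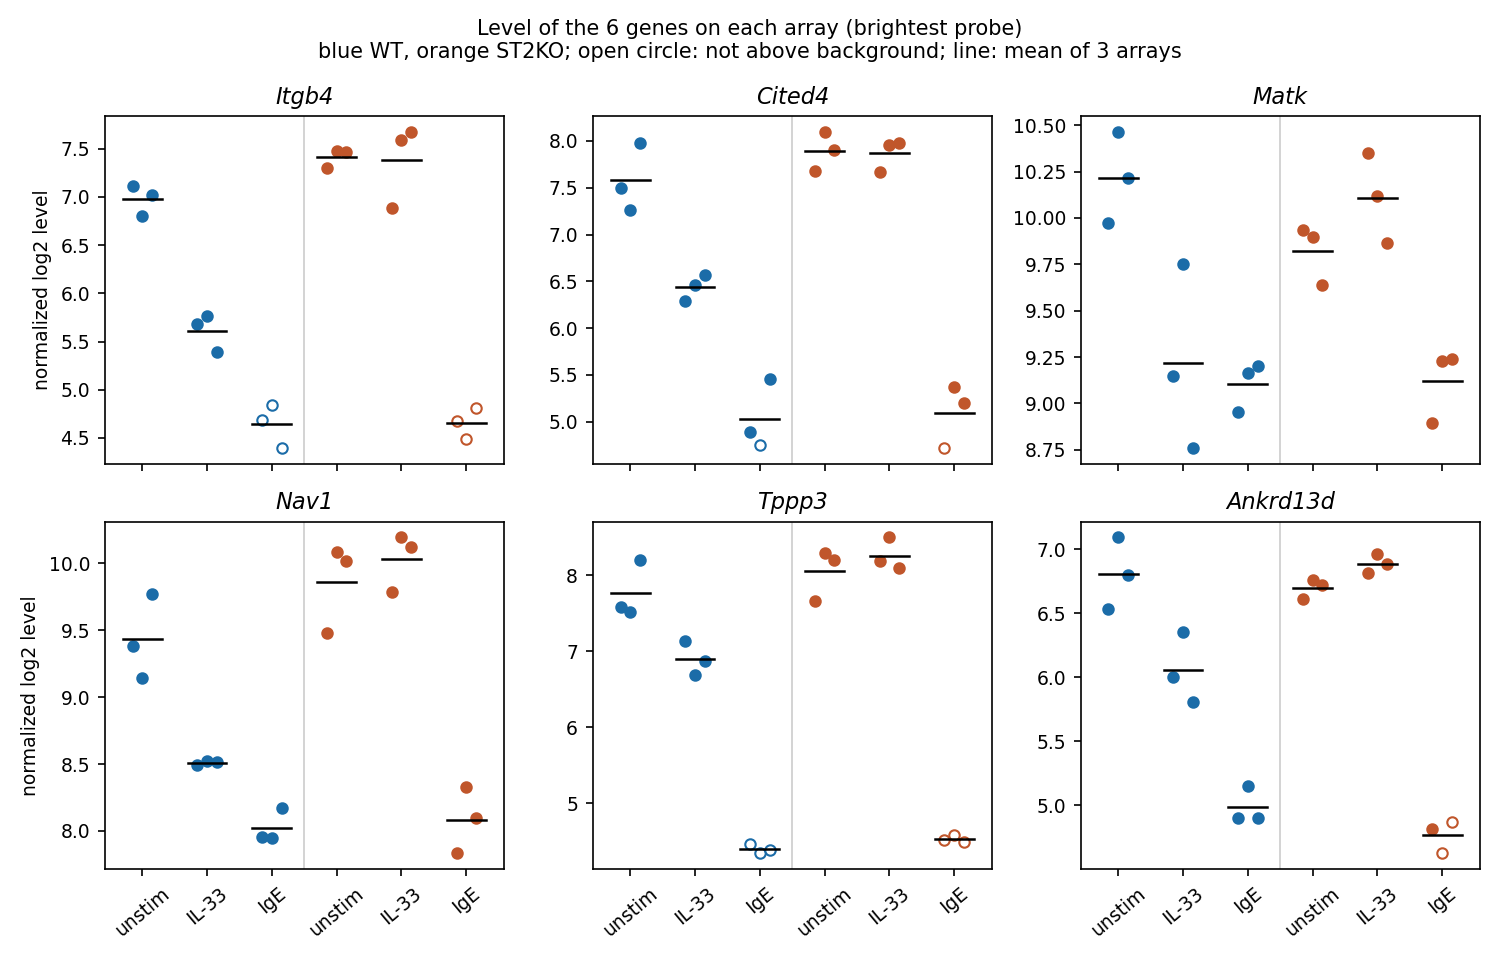
Normalized log2 level of the 6 genes on each of the 18 arrays (one panel a gene, WT in blue, ST2KO in orange, a line at the mean of 3 arrays; open circles are not above background). The WT IL-33 arrays lie below the WT unstimulated arrays in each panel, and the IgE arrays of both genotypes are low.

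Itgb4 encodes the beta 4 integrin subunit, which joins the alpha 6 subunit in a laminin receptor best known from the hemidesmosomes of epithelia. Its levels in WT were 7.11, 6.80 and 7.02 on the unstimulated arrays, 5.68, 5.77 and 5.39 after IL-33, and 4.68, 4.84 and 4.40 after IgE. In ST2KO they were 7.30, 7.48 and 7.47 unstimulated, 6.88, 7.59 and 7.67 after IL-33, and 4.68, 4.49 and 4.81 after IgE. The 3 WT groups did not overlap, the ST2KO IL-33 arrays surrounded the unstimulated ones, and no IgE array of either genotype was above background. As a description of the values that chose it, Itgb4 changed by -1.37 ± 0.18 (SE) after IL-33 in WT, first of all 18078 probes counted from the lowest, and by -0.035 ± 0.18 in ST2KO. That ST2KO value was 0.21 when the lowest array of the ST2KO IL-33 group, its replicate 1, was left out. After IgE, Itgb4 fell at least 4.39-fold in WT (means 4.64 after IgE and 6.98 unstimulated, limma adjusted p = 1.65e-08) and at least 6.05-fold in ST2KO (means 4.66 and 7.42, adjusted p = 2.06e-09). Bounds set a group with no array above background at the higher of its own level and the lowest detected level of each array.

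The second Itgb4 probe was dimmer and was above background on 11 arrays, none of them an IgE array. It read 5.14, 5.35 and 5.76 unstimulated in WT against 5.16, 5.13 and 4.70 after IL-33, and 5.39, 6.18 and 5.96 against 5.74, 6.14 and 5.85 in ST2KO. Unlike those of the brighter probe, its WT IL-33 arrays overlapped the unstimulated ones. Its change after IL-33 was -0.42 ± 0.19 in WT and 0.064 ± 0.19 in ST2KO. IgE left it at least 1.49-fold lower in WT (means 4.46 and 5.42, limma adjusted p = 0.000568) and at least 2.04-fold lower in ST2KO (means 4.51 and 5.85, adjusted p = 2e-05). Both Itgb4 probes were thus lower after IgE in both genotypes, with smaller values for the probe close to background, while after IL-33 in WT the second was not past the threshold.

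Cited4 encodes a small coregulator that binds the coactivators CBP and p300, and was read by 1 probe. In WT its levels were 7.50, 7.26 and 7.98 unstimulated, 6.29, 6.46 and 6.56 after IL-33, and 4.89, 4.76 and 5.45 after IgE. In ST2KO they were 7.68, 8.09 and 7.91 unstimulated, 7.67, 7.95 and 7.97 after IL-33, and 4.72, 5.37 and 5.20 after IgE. In WT the 3 groups were separate, and in ST2KO the IL-33 and unstimulated arrays interleaved, while 2 of 3 IgE arrays in each genotype were above background. The described change after IL-33 was -1.14 ± 0.21 in WT and -0.028 ± 0.21 in ST2KO. After IgE, Cited4 fell by 2.54 ± 0.21 on the log2 scale in WT (5.84-fold, limma adjusted p = 3.01e-08) and fell by 2.80 ± 0.21 in ST2KO (6.96-fold, adjusted p = 8.57e-09).

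Matk encodes a kinase of the Csk family, which phosphorylates the inhibitory tyrosine of Src family kinases and is found mainly in blood cells and neurons. Its brightest probe read 9.97, 10.46 and 10.22 in unstimulated WT, 9.15, 9.75 and 8.76 after IL-33, and 8.95, 9.17 and 9.20 after IgE. In ST2KO it read 9.93, 9.90 and 9.64 unstimulated, 10.35, 10.12 and 9.86 after IL-33, and 8.89, 9.23 and 9.24 after IgE. The WT IL-33 arrays were the most spread and overlapped the WT IgE arrays, which set Matk apart from the other 5 genes, whose WT IgE arrays were all lower than their WT IL-33 arrays. Its described change after IL-33 was -0.997 ± 0.20 in WT and 0.29 ± 0.20 in ST2KO. After IgE, Matk fell by 1.11 ± 0.20 in WT (2.16-fold, limma adjusted p = 0.000239) and fell by 0.70 ± 0.20 in ST2KO (1.63-fold, adjusted p = 0.00893). The ST2KO call had the highest adjusted p of the 6 genes, from 0.00183 to 0.0483 over the alternative settings.

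The 3 other Matk probes differed in how much they showed. The second probe changed by -0.73 ± 0.24 after IL-33 in WT, and fell by 0.93 after IgE in WT (limma adjusted p = 0.00377) and fell by 0.84 in ST2KO (adjusted p = 0.00745). Another probe, the third, changed by -0.66 ± 0.33 after IL-33 in WT, and its unstimulated WT arrays (5.89, 7.01 and 6.73) overlapped those after IL-33 (5.80, 6.60 and 5.24). It fell by 1.12 after IgE in WT (adjusted p = 0.0098), and its value in ST2KO was -0.47 ± 0.33 (adjusted p = 0.266, limma). The fourth probe was above background on 4 arrays, on none of the WT IL-33 or IgE arrays, and its log2 values were between 4.37 and 5.02 on all 18 arrays. All 4 probes had values below 0 after both stimuli in WT, and their mean gave a change of -0.66 after IL-33.

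Nav1 encodes neuron navigator 1, a microtubule-associated protein known from neuronal migration. Its brightest probe read 9.38, 9.15 and 9.77 in unstimulated WT, 8.50, 8.52 and 8.52 after IL-33, and 7.96, 7.95 and 8.17 after IgE. In ST2KO it read 9.48, 10.08 and 10.02 unstimulated, 9.79, 10.19 and 10.12 after IL-33, and 7.83, 8.32 and 8.10 after IgE. Each WT group was separate from the others, the WT IL-33 arrays had the smallest spread (SD 0.013), and the ST2KO unstimulated and IL-33 arrays overlapped. The described change after IL-33 was -0.92 ± 0.18 in WT and 0.17 ± 0.18 in ST2KO. After IgE, Nav1 fell by 1.41 ± 0.18 in WT (2.65-fold, limma adjusted p = 5.44e-06) and fell by 1.77 ± 0.18 in ST2KO (3.42-fold, adjusted p = 3.24e-07).

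The second and the third Nav1 probe gave values close to those of the first. Their changes after IL-33 in WT were -0.88 ± 0.21 and -0.77 ± 0.23, and in ST2KO 0.14 ± 0.21 and 0.12 ± 0.23. After IgE in WT they changed by -1.37 (limma adjusted p = 4.35e-05) and -1.01 (adjusted p = 0.00192), both falls. The fourth Nav1 probe was above background on 1 array, an unstimulated ST2KO one, with log2 values of 4.31 to 4.84, and was not kept. The first 3 Nav1 probes carried the same directions, and the one left out held no measured level outside that array.

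Tppp3 encodes a member of the tubulin polymerization-promoting protein family, which bundles microtubules. Its 1 probe read 7.58, 7.51 and 8.19 in unstimulated WT, 7.14, 6.69 and 6.87 after IL-33, and 4.47, 4.35 and 4.38 after IgE. In ST2KO it read 7.66, 8.29 and 8.20 unstimulated, 8.18, 8.49 and 8.09 after IL-33, and 4.52, 4.59 and 4.50 after IgE. It was above background on all 12 arrays without IgE and on none with it. Its described change after IL-33 was -0.86 ± 0.18 in WT and 0.21 ± 0.18 in ST2KO. After IgE, Tppp3 fell at least 7.54-fold in WT (means 4.40 and 7.76, limma adjusted p = 3e-10) and at least 9.38-fold in ST2KO (means 4.54 and 8.05, adjusted p = 1.7e-10), the largest bounds among the 6 genes.

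Ankrd13d encodes an ankyrin repeat protein with ubiquitin-interacting motifs, of a family that in human cells binds ubiquitinated receptors at the plasma membrane. In WT its 1 probe read 6.53, 7.09 and 6.80 unstimulated, 6.00, 6.35 and 5.81 after IL-33, and 4.90, 5.15 and 4.90 after IgE. In ST2KO it read 6.61, 6.76 and 6.72 unstimulated, 6.81, 6.96 and 6.88 after IL-33, and 4.82, 4.63 and 4.87 after IgE. The WT groups were separate, and the 3 ST2KO IL-33 arrays were all above the 3 unstimulated ones. The share of all probes with such a separation was not computed, and limma called 0 of all probes after IL-33 in ST2KO. No rise is therefore read from that order. Its described change after IL-33 was -0.75 ± 0.15 in WT and 0.19 ± 0.15 in ST2KO. After IgE, Ankrd13d fell by 1.82 ± 0.15 in WT (3.54-fold, limma adjusted p = 3.1e-08) and fell by 1.93 ± 0.15 in ST2KO (3.80-fold, adjusted p = 1.4e-08), with 1 of 3 ST2KO IgE arrays above background.

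Counted together, 6 of 6 genes and 7 of their 12 kept probes were lower after IL-33 in WT at an adjusted p of 0.05, where 0.476% of all 18078 probes were. The 12 probes were all below 0 in that comparison, which chose the genes, so nothing is read from the count. From the lowest of all probes, Itgb4 stood in place 1, Cited4 in 4, Matk in 7, Nav1 in 9, Tppp3 in 13 and Ankrd13d in 30. Sizes depended on the background step: without background correction the described changes were -0.68 for Itgb4, -0.71 for Cited4, -0.58 for Tppp3 and -0.39 for Ankrd13d. In ST2KO, where limma called 0 of all probes after IL-33 (508 at an unadjusted p under 0.05), the 6 values ran from -0.035 to 0.29.

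Neutrophil markers, among them the calprotectin genes S100a8 and S100a9, moved beside these values without passing the test. Of 7 measured ones 0 passed in either genotype, with a median change of -0.39 after IL-33 in WT and 0.45 in ST2KO. The mean level of the list was 6.37, 6.95 and 7.16 on the unstimulated WT arrays and 6.36, 7.12 and 5.69 after IL-33. In ST2KO it was 5.51, 5.68 and 5.67 unstimulated and 7.05, 5.37 and 5.63 after IL-33. The array of 7.05, replicate 1 of ST2KO after IL-33, stood apart from the other ST2KO arrays. It was also the lowest of its group for Itgb4, Cited4, Nav1 and Ankrd13d, the highest for Matk and in between for Tppp3. Without it the changes after IL-33 in ST2KO were 0.21 for Itgb4, 0.07 for Cited4, 0.17 for Matk, 0.30 for Nav1, 0.25 for Tppp3 and 0.22 for Ankrd13d. Mpo was above background on 14 arrays, Camp on 3, Elane on 1 and Mmp8 on 0, and the part of these markers in the values of the 6 genes was not tested.

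**Figure D2:**
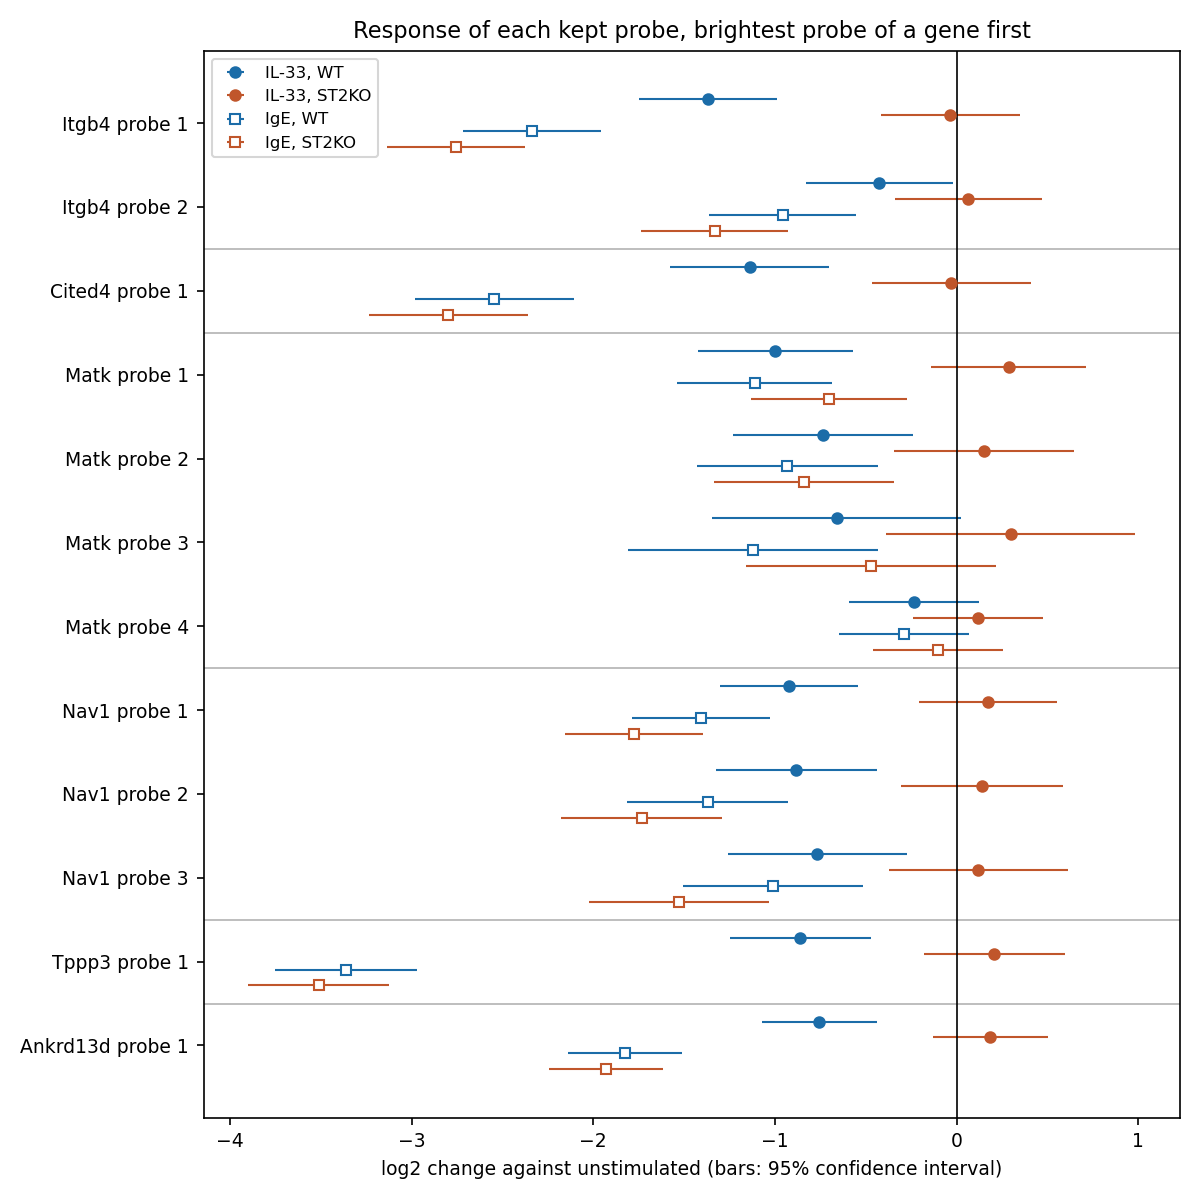
Log2 change against unstimulated of the 12 kept probes (points; bars are 95% confidence intervals), after IL-33 (filled circles) and IgE (open squares) in WT (blue) and ST2KO (orange). The WT IL-33 points lie below 0 and the ST2KO IL-33 intervals include 0, while IgE points are lowest for Tppp3. For Itgb4, Tppp3 and the fourth Matk probe the IgE points are measured means of probes not above background. The same holds for the WT IL-33 point of that Matk probe.

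IgE lowered all 6 genes in both genotypes. The call was made for 6 of 6 genes and 11 of 12 probes in WT, where 22.2% of all probes were lower, and for 6 of 6 genes and 10 of 12 probes in ST2KO, where 23.5% were. With Itgb4 and Tppp3 at their bounds, the median change was -1.98 in WT and -2.26 in ST2KO, against -0.02 for all probes in each genotype. These sizes and bounds hold for the background correction used. Without it the change in WT was -1.003 for Itgb4, -1.27 for Cited4, -1.63 for Tppp3 and -0.79 for Ankrd13d, and in ST2KO -1.27, -1.48, -1.78 and -0.79 in the same order. All of these still passed the test (highest limma adjusted p = 1.04e-06). The probes without a call were the fourth Matk probe in both genotypes and the third in ST2KO. Among the 4 genes measured after IgE, Cited4 was in place 33 from the lowest of all probes in WT, Ankrd13d in 188, Nav1 in 480 and Matk in 842. The unstimulated arrays of these comparisons also took part in the choice of the genes, while the IgE arrays did not. The 6 calls in each genotype were kept under all 19 alternatives run for WT and all 18 run for ST2KO.

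Some markers of other cells moved with IgE, after which 22.2% of all probes were lower in WT and 23.5% in ST2KO. Of 8 measured erythroid and megakaryocyte markers 4 fell in ST2KO and 3 in WT, the globin gene Hba-a1 with a change of -2.89 (limma adjusted p = 2.09e-07) and the platelet glycoprotein genes Gp1bb with -1.48 (0.00486) and Gp9 with -1.02 (0.0372). The mean level of that list was 7.21 to 7.85 on the unstimulated WT arrays and 6.49 to 6.88 on the IgE arrays, and 7.31 to 7.77 against 6.47 to 6.90 in ST2KO. Alas2 of this list was above background on 0 arrays. Another of its genes, Itga2b, was at 0.19 after IgE in WT and 0.22 in ST2KO (limma adjusted p = 0.224 and 0.149). In both genotypes 0 of the list rose past the threshold. The part of these markers in the falls of the 6 genes was not tested. After IL-33 in WT, 0 of those 8 markers passed, and the list mean was 7.12 to 7.86.

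The genotypes differed in the 6 genes after IL-33, as the choice of the genes implies. On the IgE arrays no difference was called, and Itgb4 and Tppp3 were not above background in either genotype. After IL-33, ST2KO exceeded WT by 1.77 ± 0.18 for Itgb4, 1.43 ± 0.21 for Cited4, 0.89 ± 0.20 for Matk, 1.52 ± 0.18 for Nav1, 1.36 ± 0.18 for Tppp3 and 0.83 ± 0.15 for Ankrd13d. In that comparison 6 of 6 genes and 9 of 12 probes were higher at an adjusted p of 0.05, where 1.7% of all probes were, and nothing is read from it. The IL-33 response of ST2KO exceeded that of WT by 1.33 ± 0.26 for Itgb4, 1.28 ± 0.29 for Matk, 1.11 ± 0.29 for Cited4, 1.10 ± 0.25 for Nav1, 1.07 ± 0.26 for Tppp3 and 0.94 ± 0.21 for Ankrd13d, and 4 of the 6 were past the threshold, where 0.105% of all probes were higher. That difference also chose the genes, so nothing is read from this count either. Without background correction ST2KO exceeded WT after IL-33 by 0.94 for Itgb4, 0.91 for Cited4 and 0.43 for Ankrd13d, and their response differences were 0.66, 0.69 and 0.50. Unstimulated, ST2KO minus WT was 0.44 for Itgb4, 0.43 for Nav1, 0.32 for Cited4, 0.29 for Tppp3, -0.11 for Ankrd13d and -0.39 for Matk. All 3 ST2KO arrays were above the 3 WT ones for Itgb4 and below them for Matk. Without stimulation limma called 0 of all probes between genotypes (1429 at an unadjusted p under 0.05). The share of all probes without overlap was not computed, so no genotype difference is read from these 2 genes.

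The 6 IgE arrays took no part in the choice, and on them ST2KO and WT were compared as a test. It called 0 of 6 genes, where 0% of all probes passed limma's threshold (0 probes, 1363 at an unadjusted p under 0.05, lowest adjusted p 0.0764). Itgb4 and Tppp3 were not above background in either genotype there and get no fold. The difference was 0.063 for Cited4 (95% interval -0.37 to 0.50), 0.015 for Matk (-0.41 to 0.44), 0.059 for Nav1 (-0.32 to 0.44) and -0.21 for Ankrd13d (-0.53 to 0.10). Each of these intervals includes 0, and differences inside them were not detectable with 3 arrays a group. The Ankrd13d groups did not overlap, at 4.90 to 5.15 in WT and 4.63 to 4.87 in ST2KO (adjusted p = 0.806, limma). Only 1 of 3 ST2KO arrays was above background there. The share of all probes without overlap was not computed, so no difference is read from this separation.

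**Figure D3:**
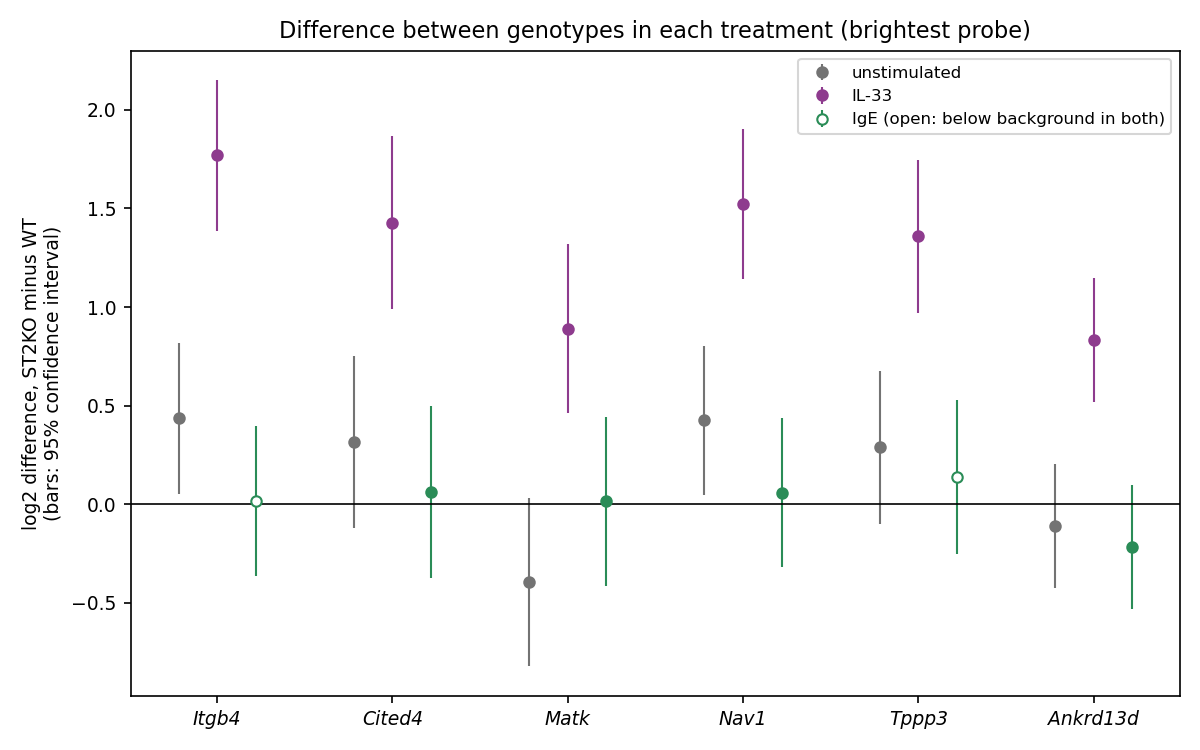
ST2KO minus WT on the log2 scale for the 6 genes (points; bars are 95% confidence intervals) unstimulated (grey), after IL-33 (purple) and after IgE (green; open where both genotypes were not above background). The IL-33 points run from 0.83 to 1.77 and the IgE intervals include 0.

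The IgE responses of the genotypes were compared by an interaction term, which shares the unstimulated arrays with the choice of the genes. It called 0 of 6 genes, and 0% of all probes (0 by limma, 799 at an unadjusted p under 0.05). ST2KO minus WT was 0.41 for Matk (95% interval -0.20 to 1.01), -0.25 for Cited4 (-0.87 to 0.37), -0.37 for Nav1 (-0.90 to 0.17) and -0.10 for Ankrd13d (-0.55 to 0.34). These intervals are wider than those of the direct comparison, so a difference of up to 1.01 for Matk could not be told from none.

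Differences between arrays of the same number gave the same picture by array. The numbers were not shown to pair the IL-33 and unstimulated arrays of ST2KO, so signs there depend on the matching where the groups overlap. After IL-33 in WT all 3 differences were below 0 for each gene, from -1.63, -1.44 and -1.04 for Itgb4 to -0.99, -0.74 and -0.53 for Ankrd13d. In ST2KO all 3 were above 0 for Matk (0.42, 0.22 and 0.22), Nav1 (0.31, 0.11 and 0.10) and Ankrd13d (0.20, 0.20 and 0.16), and of mixed sign for Itgb4, Cited4 and Tppp3. After IgE every difference was below 0 in both genotypes, the one nearest to 0 being -0.40 for Matk in ST2KO.

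**Figure D4:**
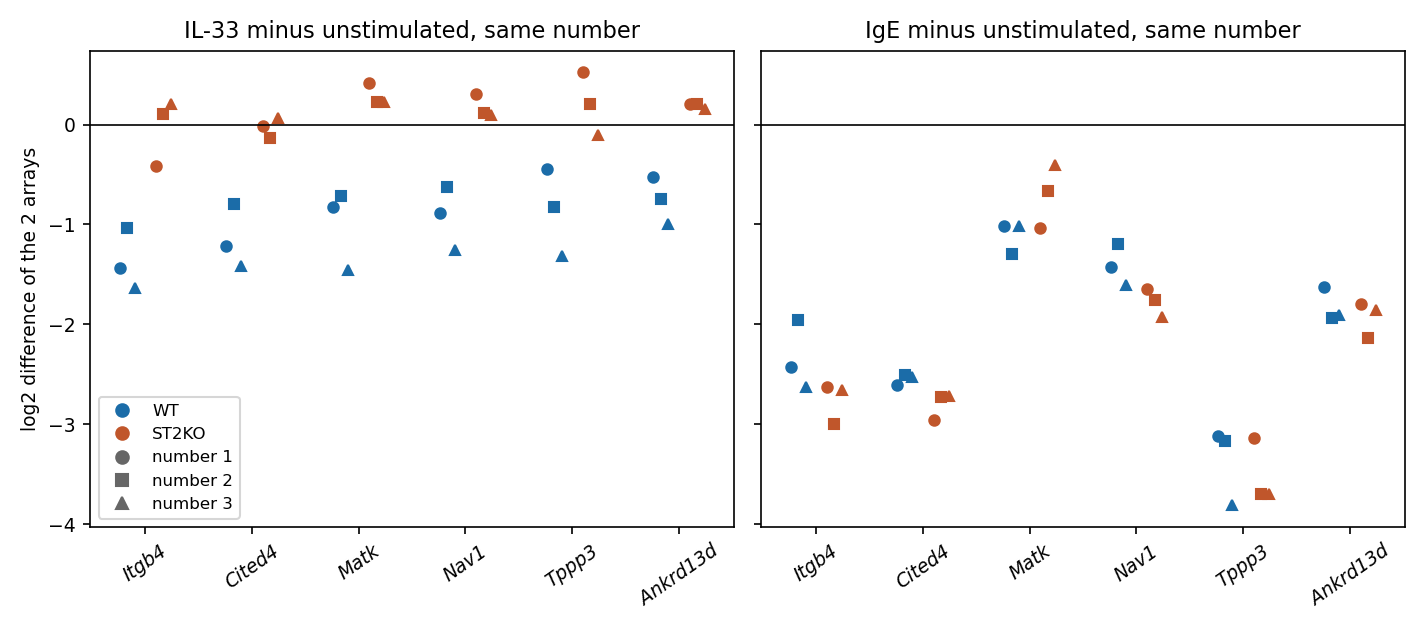
Log2 difference between the stimulated and the unstimulated array of the same number for the 6 genes, after IL-33 (left) and IgE (right), WT in blue and ST2KO in orange, with a symbol for each number. After IL-33 the WT points lie below 0 and the ST2KO points near it; after IgE both genotypes lie below 0.

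The order of the 6 group means was alike in the genes. WT IL-33 stood in place 4 and the IgE groups in places 5 and 6 for all 6 genes. The upper 3 places, held by the unstimulated groups and ST2KO IL-33, overlapped with their neighbours in that order for all 6 genes. The step from place 3 to place 4 was without overlap for Itgb4, Cited4, Nav1, Tppp3 and Ankrd13d, and with overlap for Matk. That WT IL-33 stood below the upper 3 groups follows from the choice of the genes, so nothing is read from this step. The share of all probes without overlap there was not computed. The step from WT IL-33 to the higher IgE group was 1.34 for Cited4, 1.07 for Ankrd13d, 0.43 for Nav1 and 0.099 for Matk, and is not given for Tppp3 and Itgb4, which were not above background after IgE.

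Over the 18 arrays the levels of the 6 genes correlated with each other at Pearson's r of 0.756 to 0.974, lowest for Matk with Tppp3 and highest for Cited4 with Tppp3. These values describe arrays of 6 groups that share their normalization. The genes were also chosen for like changes on the unstimulated and IL-33 arrays, so these correlations follow in part from the choice. No range of r for other pairs of genes was computed, and nothing is read from these values. Among 9972 other genes, the highest r to Itgb4 was 0.981 for Gfi1, a transcriptional repressor gene, followed by Parp6 (0.974) and Rgs2 (0.972), a regulator of G protein signalling. For Cited4 they were Slc46a3 (0.980), the transcription factor gene Rfx2 (0.979) and Espn (0.975), for Tppp3 Rfx2 (0.990), Trib3 (0.987) and Mgst3 (0.986), and for Ankrd13d Golm1 (0.985), Rgl2 (0.985) and Kmt5c (0.984). Nav1 was most like Espn (0.971), Cited4 (0.966) and Itgb4 (0.962), so 2 of its 3 nearest were members. Matk had lower values, 0.911 for Emc3, 0.906 for Akap8l and 0.905 for Oip5.

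Relatives of the 6 genes were measured beside them. Among all probes 0.476% were lower and 2.36% higher after IL-33 in WT, and 22.2% lower and 20% higher after IgE, against which the counts of each list below are to be read. The integrin list had 17 measured members other than Itgb4. After IL-33 in WT, 0 fell and 1 rose, Itga5, by 0.90 (limma adjusted p = 0.00175). After IgE in WT 3 fell and 3 rose, with Itgb5 at -1.67, Itgb7, the partner of alpha 4 in mucosal homing, at -1.64, and Itga5 at 0.67. Itga6, the partner of beta 4, was at -0.11 after IL-33 (adjusted p = 0.81) and -0.64 after IgE (adjusted p = 0.000461), and Itgb1 at 0.15 and 0.27 (adjusted p = 0.78 and 0.187). Of 5 measured hemidesmosome and laminin genes, 0 passed after IL-33 and, after IgE, Itga6 fell and Lamb3 rose, Lamb3 being above background on no unstimulated array. The medians of the integrin list were -0.089 after IL-33 and -0.12 after IgE, against -0.03 and -0.02 for all probes.

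Of 5 measured CBP and p300 partners, 0 passed after IL-33 in WT, and after IgE 2 fell and 1 rose. Cited2, the nearest relative of Cited4 measured here, was at -0.21 after IL-33 (limma adjusted p = 0.588) and fell by 0.87 after IgE (adjusted p = 3.64e-05). The coactivator gene Ep300 fell by 0.58 (0.00081) and the TGF-beta mediator gene Smad2 rose by 0.43 (0.00857).

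Among 14 measured Src family kinases and their regulators, 0 fell and 1 rose after IL-33 in WT, Syk by 0.67 (limma adjusted p = 0.0366). After IgE 0 fell and 8 rose, among them the adaptor gene Dok2 by 1.45, the phosphatase genes Ptpn22 by 1.19 and Ptpn6 by 1.13. Csk, the kinase that shares its target tyrosine with the Matk product, was at -0.32 after IL-33 (adjusted p = 0.435) and -0.26 after IgE (adjusted p = 0.212). In ST2KO after IgE, where 20.6% of all probes were higher and 23.5% lower, 8 rose and 1 fell. The fall was of Src by 0.99 (adjusted p = 0.000633), which in WT was at -0.25 (adjusted p = 0.344). The interaction term called 0 of all probes between the IgE responses of the genotypes, so no genotype difference is read for Src. The list median after IgE in WT was 0.53, and Matk, which fell, is not counted in it.

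Of 12 measured navigator, TPPP and microtubule genes 0 passed after IL-33 in WT. After IgE 3 fell and 2 rose, with the plus-end protein genes Clip1 at -1.43 (limma adjusted p = 2.73e-08) and Mapre2 at -0.58 (0.0297) and the exchange factor gene Trio at 0.60 (0.00636). Nav2 and Tppp were on the array but not kept. Of 14 measured ANKRD13 and endocytic adaptor genes 0 passed after IL-33 in WT, and after IgE 2 fell and 4 rose. Ankrd13b was at -0.34 after IL-33 in WT (adjusted p = 0.534) and 0.26 in ST2KO, and was higher in ST2KO than in WT after IL-33 by 0.75 (limma adjusted p = 0.0391). It fell by 1.11 after IgE in WT (0.000197) and fell by 1.07 in ST2KO (0.000262), as the 6 genes did. The IL-33 response of Ankrd13b in ST2KO exceeded that in WT by 0.60 (limma adjusted p = 0.494). Its values after IL-33 thus had the directions of the 6 genes, without a detected fall in WT or difference of responses. Ankrd13a was at 0.068 after IL-33 in WT (0.889) and fell by 0.38 after IgE (0.0118), and Ankrd13c was not kept. The caveolin gene Cav1 rose by 1.73 after IgE (0.000212) and the trafficking adaptor genes Gga3 by 0.57 (0.00663) and Gga2 by 0.50 (0.00465).

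Itgb4 is best known from epithelia, and epithelial markers were examined beside it. Of 9 such markers on the array, 7 (Epcam, Krt5, Krt14, Krt18, Krt19, Cldn4 and Trp63) were above background on 0 of 18 arrays. Cdh1 and Krt8 were kept, with 0 of them passing after IL-33 in WT, and Cdh1 fell by 0.76 after IgE (limma adjusted p = 0.00208). Of 9 stromal and endothelial markers 1 was kept, Pecam1, which did not pass after IL-33 and fell by 0.48 after IgE (0.0051).

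The other lists put the 6 falls beside the rest of the response. After IL-33 in WT, 14 of 15 measured NF-kB feedback and target genes rose and 0 fell, and after IgE 14 rose and 1 fell, with Cxcl2 at 4.25 and 4.66. Of 10 basophil markers 0 passed after IL-33, and after IgE 3 fell and 2 rose, with Gata2 at 0.63, Cebpa at 0.59, Cd200r3 at -0.56 and Ms4a2 at -0.42. Of 7 mast cell markers 1 rose after IL-33, the tryptophan hydroxylase gene Tph1 by 2.60, and 3 after IgE. Of 8 macrophage and monocyte markers 1 rose after IL-33, Cd14 by 1.38, and 1 after IgE. Of 6 dendritic cell markers 0 passed after IL-33 and 4 rose after IgE, led by Cd74 at 2.19. Of 3 lymphocyte markers 0 and 1 rose, of 3 eosinophil markers 0 and 0 passed, of the 7 neutrophil markers 0 and 0 (median -0.68 after IgE), and of 9 cell cycle genes 0 after IL-33, with 3 higher and 2 lower after IgE.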

How the data were processed

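The members and gene lists were chosen with earlier results of these data known. Per the file headers the authors deposited, for every array, a linear bead intensity of each probe without background subtraction, together with its detection p-value. The authors' deposited processed values are log2 values whose median was 4.29 on every array and whose ranks matched those of the intensity (correlation 1), which sets their direction; their background step, and any constant added, are unknown. Per the labels, RNA was labelled with biotin by Illumina's protocol. In all, 4 blank lines among the intensities were skipped.

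The neqc function (limma 3.58.1, R 4.3.3) corrected the background and normalized quantiles, with an offset of 16. A probe was kept if 3 or more of the 18 arrays detected it (p-value under 0.05). Of all probes 34885 had 1 gene symbol, 18 several and 10378 none; 34807 matched RefSeq by Entrez identifier and 0 symbols changed. The fit (lmFit, eBayes) gave each group a mean and used all 18 arrays, with Benjamini-Hochberg adjustment over 18078 probes and a threshold of 0.05; intervals are at 95%. For the comparisons that chose the genes, values and counts past the threshold are given as a description, and no p-value of a member is read. Scripts were tested on simulated data. The number of arrays limits the precision.

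All members and probes were named, the 3 genes with the highest correlation to each, relatives of the members, and from each list up to 4 genes with the largest change that passed after IL-33 or IgE in WT; genes not above background in a group were mostly left out. Pairing of same-numbered arrays was read from how their deviations from group means correlated. The correlation was 0.203, 0.282 and 0.274 between IgE and unstimulated WT arrays, and 0.139, 0.133 and 0.203 in ST2KO. Each was above the values for other numbers (highest -0.009 in WT and -0.01 in ST2KO), so same-numbered arrays deviated alike there. Between the genotypes after IgE, same-numbered arrays correlated at 0.273, 0.092 and 0.129, and another number reached 0.164 for array 2. What the numbers stand for was not tested. Between IL-33 and unstimulated WT arrays the correlations were 0.35, 0.545 and 0.147. WT IL-33 array 3 had a higher value, 0.417, with an unstimulated array of another number, so pairing is not shown for it. Between IL-33 and unstimulated ST2KO arrays the correlations were -0.036, 0.037 and 0.231, and other numbers reached 0.11 and 0.103 for arrays 1 and 2.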

Additional observations from a re-analysis of the deposited data

Results flagged for a closer look

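For 3 genes every same-numbered difference after IL-33 was below 0 in WT and above 0 in ST2KO. The IL-33 response, ST2KO minus WT on the log2 scale, was 1.28 for Matk, 1.10 for Nav1 and 0.94 for Ankrd13d. These differences helped to choose the genes, so no p is given for them, and whether the opposite signs differ from chance was not tested. The deviations of same-numbered ST2KO arrays correlated at -0.036, 0.037 and 0.231, so the numbers were not shown to pair them. For Matk and Nav1 the ST2KO IL-33 and unstimulated arrays overlapped, so the signs of these genes in ST2KO depend on the matching. The share of all probes with such signs was not computed. In Matk the ST2KO arrays were also lower than the WT arrays without stimulation, with a difference of -0.39, in a comparison where limma called 0 of all probes.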

How the results depend on the processing

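When the replicate block was the number, or genotype and number together, 6 of 6 genes were lower after IgE in WT and in ST2KO and 0 of 6 differed between genotypes, as without the block. For the comparisons that chose the genes no counts of members were made under the block or any other alternative. The counts of members passing in the IgE comparisons and between genotypes after IgE were the same under each alternative run, namely without background correction, the authors' processed values, an offset of 50, no or a stricter filter on dim probes, 1 probe or the mean probe per gene, array weights, only the compared arrays, another variance prior, and leaving out each array or all WT arrays of number 2. A block for the chip was not run, since the column headers give no chip. The IL-33 and IgE changes of Itgb4, Cited4, Tppp3 and Ankrd13d were smaller without background correction, as given with those results. With an offset of 50 the IgE changes in WT were -1.44, -1.75, -2.19 and -1.16 in that order of genes. The described IL-33 changes in WT were also smaller with an offset of 50 (Itgb4 -0.95, Ankrd13d -0.54) and with the mean of the probes (Itgb4 -0.90, Matk -0.66). When the ST2KO IL-33 array with number 1 was left out, ST2KO minus WT for Itgb4 was 2.02 after IL-33 and 1.58 in the response.

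The numbers of all probes called depended on the setting, and for the comparisons after IL-33 no counts of members were made beside them. Probes lower after IL-33 in WT numbered 86, 226 with array weights, 140 with the block within genotype, 14 with only the compared arrays, and 37 to 94 without one array, with 56, 46 and 37 without WT unstimulated array 2, WT IL-33 array 1 and WT IL-33 array 3. Probes lower after IgE numbered 4011 in WT and 4251 in ST2KO, and 2421 and 2637 with 1 probe per gene, 2396 and 2569 with the mean probe, where fewer features were tested. Probes higher in ST2KO after IL-33 numbered 308, 205 without a filter, 880 with array weights, and 116 to 197 without one or another IL-33 array of either genotype. Probes with a higher IL-33 response in ST2KO numbered 19, between 11 and 51 under other settings and 5 to 24 without one array. Between genotypes after IgE the count was 0, and 1 without background correction or without a filter, 2 per gene by either summary, 3 with an offset of 50, 5 with the number as a block, and 15, 24, 3 and 11 without WT IgE array 1, WT IgE array 3, ST2KO IgE array 1 and ST2KO IgE array 2, and 0 without either other IgE array. The cause of these moves was not tested.

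Low signal limits Itgb4, Tppp3, Cited4 and Ankrd13d after IgE, where bounds or compressed changes are all that can be given.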
